A study of Homo sapiens with 4 samples.

Results

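The genes described here load transfer RNAs with amino acids or supply the cell with amino acids. They are 42 genes taken by symbol and function: 20 genes of cytosolic aminoacyl-tRNA synthetases, 8 genes of serine and folate one-carbon metabolism, 7 genes of other amino acid synthesis and 7 genes of amino acid transporters at the cell surface. The choice was made with earlier results of these data known. All 42 were found among the 58735 genes of the deposited table, and all 42 were among the 13079 genes tested, those that reached 1 FPKM (fragments per kilobase, a level corrected for gene length and library size) in 2 or more of the 4 libraries. RNA was sequenced from H1299 cells, which come from a human lung carcinoma of the non-small cell type, with 2 wild-type libraries and 2 libraries from cells whose TTC28 gene had been knocked out by CRISPR/Cas9. Cells of both genotypes were grown in RPMI1640 medium with fetal bovine serum, penicillin and streptomycin and are labelled untreated. The labels do not say whether the knockout is 1 clone or a pool, nor whether replicates are separate cultures, so the p-values measure only the spread between these libraries, which may be technical.

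An aminoacyl-tRNA synthetase joins an amino acid to its transfer RNA, which the ribosome then reads. Serine made from glucose feeds glycine synthesis and the folate cycle, which in turn supplies purine and thymidine synthesis, and proliferating tumour cells are known for high activity of this route. Many of these genes are known to be induced by ATF4, a factor of the amino acid response that binds composite C/EBP-ATF response elements, and by MYC, which binds E-box sequences.

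The libraries held 25120500 to 28885443 counts. Pairs of values are those of replicates 1 and 2 of a group, in that order. TTC28, the targeted gene, had 4.88 and 5.44 FPKM in the wild-type libraries and 2.96 and 2.99 FPKM in the knockout libraries, so its transcript was lower and still present (log2 fold change -0.79 ± 0.0764, SE, edgeR adjusted p = 2.78e-06). The table gives 1 count per gene and library, which leaves the edited bases unexamined. Mitochondrially encoded genes took 5.87% to 6.07% of the counts in wild-type and 8.61% to 10.16% in knockout libraries, and the part of this difference in the results was not tested beyond the change of scaling given in the closing section. VIM, a mesenchymal gene, had a mean of 308 FPKM in wild type and 359 FPKM in the knockout, and KRT18, a simple epithelial keratin gene, lay at 138 to 170 FPKM, while the lung differentiation markers NKX2-1, SFTPB, SFTPC and SCGB1A1 and the leukocyte, endothelial and liver markers PTPRC, PECAM1 and ALB were under 0.1 FPKM in every library. Whether the counting used strand is not stated, so bases shared by genes on opposite strands cannot be assigned to either gene. For TTC28 such a gene is TTC28-AS1, which shares 7.38% of its exonic bases. TTC28-AS1 had 243 and 258 counts in wild type and 412 and 359 counts in the knockout.

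The promoters of these genes show which members carry the letters of the response elements. Promoter windows of RefSeq (GRCh38.p14), from 250 bases before to 50 bases after a gene's start, were found for 34 of the 42 genes (all but DARS, GPT2, LARS, PSPH, PYCR1, SHMT2, VARS and YARS). The table lists more than 1 window for 11 of the 34, and the window listed ahead of the others was used. The core of the C/EBP-ATF element, TGATGNAA on either strand, was in the windows of 12 of 34 members (35.3%) and of 1003 of 27305 genes in the table (3.67%). Over all their listed windows, 15 members held it. Each site is given on the strand of its gene in 30 bases, with the match in capitals, because these are the members whose used windows hold the element:
TARS, chr5:33440956-33440985, plus strand: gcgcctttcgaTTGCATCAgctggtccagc
AARS, chr16:70289675-70289704, minus strand: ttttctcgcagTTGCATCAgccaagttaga
NARS, chr18:57621804-57621833, minus strand: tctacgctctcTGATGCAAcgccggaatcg
MARS, chr12:57488053-57488082, plus strand: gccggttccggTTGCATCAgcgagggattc
IARS, chr9:92293692-92293721, minus strand: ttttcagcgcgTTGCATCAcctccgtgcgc
CARS, chr11:3057407-3057436, minus strand: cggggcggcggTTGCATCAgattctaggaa
MTHFD1L, chr6:150866346-150866375, plus strand: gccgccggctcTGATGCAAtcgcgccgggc
GOT1, chr10:99430804-99430833, minus strand: aattgcattggTTGCATCAttctcggcagc
ASNS, chr7:97872458-97872487, minus strand: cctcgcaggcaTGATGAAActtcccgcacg
SLC7A1, chr13:29595663-29595692, minus strand: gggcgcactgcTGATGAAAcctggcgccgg
SLC3A2, chr11:62881719-62881748, plus strand: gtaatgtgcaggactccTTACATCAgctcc
SLC38A1, chr12:46266502-46266531, minus strand: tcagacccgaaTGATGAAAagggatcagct

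The match read TGATGCAA, or TTGCATCA on the other strand, in 8 of these 12 windows, among them those of 6 synthetase genes. The windows of ASNS, SLC7A1 and SLC38A1 held TGATGAAA, and that of SLC3A2 held TTACATCA. A match is a run of letters in the window and does not show that a factor binds there.

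The E-box letters CACGTG, which read the same on both strands, were in the windows of 5 of the 34 members (14.7%) and of 2030 of 27305 genes (7.43%). They are IARS, MTHFD1, MTHFD1L, ALDH18A1 and SLC7A5, and MTHFD1L and IARS hold both elements. Over all listed windows, 6 members held CACGTG. The 250 bases before the start are printed for ALDH18A1 and SLC7A5, an enzyme gene that was higher and a transporter gene that was lower in the knockout, with the E-box in capitals:
ALDH18A1, chr10:95656712-95656961, minus strand: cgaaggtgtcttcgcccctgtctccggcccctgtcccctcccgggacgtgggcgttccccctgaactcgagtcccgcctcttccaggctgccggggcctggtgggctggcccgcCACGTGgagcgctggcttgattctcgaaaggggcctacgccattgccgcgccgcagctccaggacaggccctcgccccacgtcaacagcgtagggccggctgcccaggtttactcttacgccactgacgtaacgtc
SLC7A5, chr16:87869508-87869757, minus strand: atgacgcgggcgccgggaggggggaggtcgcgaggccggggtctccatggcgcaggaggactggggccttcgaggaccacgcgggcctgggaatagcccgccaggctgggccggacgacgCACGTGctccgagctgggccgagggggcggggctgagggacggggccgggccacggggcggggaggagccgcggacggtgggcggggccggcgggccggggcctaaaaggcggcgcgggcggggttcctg

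The comparison of knockout with wild-type cells asks which transcripts differ after TTC28 was targeted. Among the 42 genes, 31 fell, 3 rose and 8 did not pass (edgeR's quasi-likelihood test on counts, Benjamini-Hochberg adjusted p under 0.05 over all 13079 tested genes). Over all genes, 50.3% of the tested genes passed, 25.2% lower and 25.1% higher, so the 73.8% of members that fell stand beside 25.2% and the 7.14% that rose beside 25.1%. The median log2 fold change, knockout over wild type, was -0.33 over the members and -0.00 over all tested genes. The 2 groups had no overlap in FPKM for 39 members, 36 of them lower (37.9% of all tested genes) and 3 higher (37.6%), and they overlapped for HARS, ASNS and SHMT1. In size, 12 members fell by more than 0.5 on the log2 scale (28.6%, against 10.4% of all tested genes), and PYCR1 fell by more than 1. With FPKM rescaled to an equal sum in each library (a TPM scale), 38 members were lower and 1 higher, and the median of all tested genes moved to -0.17.

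**Figure D1:**
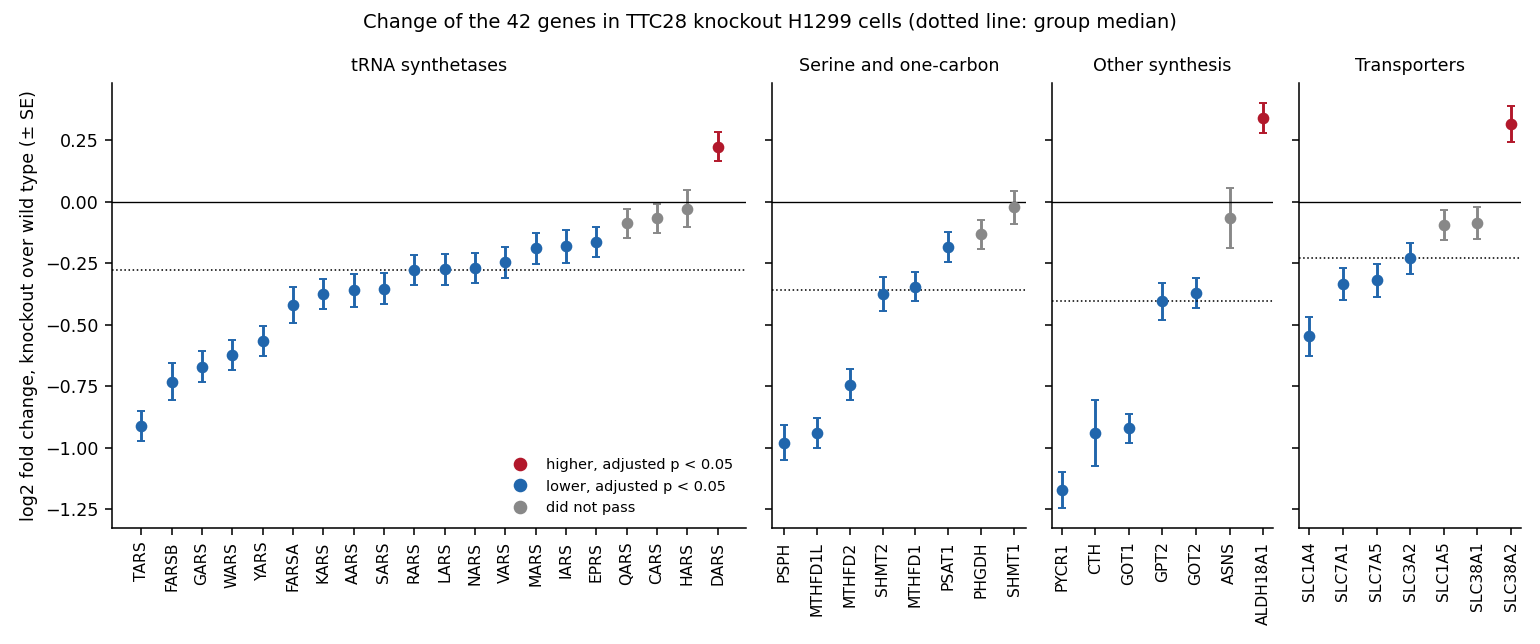
Log2 fold change (knockout over wild type, vertical axis, bars are the standard error of the fit) of the 42 genes in 4 panels by role, ordered within each panel, with blue for genes that fell, red for genes that rose, grey for genes that did not pass and a dotted line at the group's median. The 31 genes that fell lie between PYCR1 at -1.17 and EPRS at -0.16, and DARS, ALDH18A1 and SLC38A2 are the 3 above 0 that passed.

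Of the 20 cytosolic synthetase genes 16 fell, 1 rose and 3 did not pass, with a median log2 fold change of -0.28. Their summed level, which is per length, was 1348 and 1364 FPKM in wild type and 1067 and 1048 FPKM in the knockout. The knockout sum of 1057 ± 13.7 FPKM (SD, n = 2) was 78.0% of the wild-type sum of 1356 ± 11.2 FPKM (SD, n = 2). In bulk RNA a lower transcript level in every cell and a smaller share of cells with the transcript cannot be told apart.

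TARS, the threonyl-tRNA synthetase gene (ENSG00000113407, hg38 chromosome 5, 33440696 to 33469539, plus strand), fell most among the synthetases. Its level was 75.3 and 74.1 FPKM in wild type, and 40.2 and 38.9 FPKM in the knockout. The log2 fold change was -0.91 ± 0.0613 (SE; edgeR adjusted p = 1.21e-07), 1.88-fold lower, and both knockout libraries lay far below both wild-type libraries. FARSB (chromosome 2, 222570536 to 222656337, minus strand) and FARSA (chromosome 19, 12922479 to 12934037, minus strand) encode the beta and alpha subunits of phenylalanyl-tRNA synthetase. FARSB was at 26.0 and 23.6 FPKM in wild type and at 14.3 and 15.5 FPKM in the knockout (-0.73 ± 0.0761, edgeR adjusted p = 5.36e-06). FARSA was at 65.4 and 63.9 FPKM in wild type and at 51.9 and 44.6 FPKM in the knockout (-0.42 ± 0.0720, edgeR adjusted p = 0.000324). Both subunit genes were lower in each knockout library than in any wild-type library; whether their changes differ was not tested.

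GARS, the glycyl-tRNA synthetase gene (chromosome 7, 30594681 to 30634033, plus strand), had the highest level of the 20 in wild type. It was at 138 and 136 FPKM in wild type and at 84.6 and 87.2 FPKM in the knockout, a log2 fold change of -0.67 ± 0.0627 (edgeR adjusted p = 2.15e-06), with no overlap. WARS, for tryptophan (chromosome 14, 100333788 to 100376805, minus strand), and YARS, for tyrosine (chromosome 1, 32775237 to 32818153, minus strand), are close relatives in fold. WARS went from 76.1 and 77.6 FPKM in wild type to 49.0 and 50.5 FPKM in the knockout (-0.62 ± 0.0620, edgeR adjusted p = 3.57e-06). YARS went from 59.5 and 60.4 FPKM to 41.1 and 39.8 FPKM (-0.57 ± 0.0614, edgeR adjusted p = 7.64e-06). In both genes the replicates of a group lay within a few percent of each other and well apart from the other group.

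The other 10 synthetase genes that fell did so by 0.16 to 0.38 on the log2 scale: KARS (-0.38), AARS (-0.36), SARS (-0.35), RARS (-0.28), LARS (-0.28), NARS (-0.27), VARS (-0.25), MARS (-0.19), IARS (-0.18) and EPRS (-0.16), for lysine, alanine, serine, arginine, leucine, asparagine, valine, methionine, isoleucine and, in EPRS, glutamate and proline. The smallest of these calls did not hold in every fit. With all 4 libraries, 14 synthetase genes were lower at a minimum of 5 FPKM, against 16 at 1 FPKM. The next fits each leave out 1 library, which leaves 1 in its group. EPRS had an edgeR adjusted p of 0.148 without wild-type replicate 1, 0.133 without wild-type replicate 2 and 0.0676 without knockout replicate 1, against 0.036 with all 4. MARS had 0.0991, 0.0985 and 0.0553 in the same 3 fits, against 0.0215. IARS had 0.28 without wild-type replicate 2 and 0.0867 without knockout replicate 1, against 0.0372, and VARS had 0.0691 without wild-type replicate 2, against 0.00523. QARS, CARS and HARS, for glutamine, cysteine and histidine, did not pass, at -0.09, -0.07 and -0.03.

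DARS, the aspartyl-tRNA synthetase gene (chromosome 2, 135906677 to 135986100, minus strand), was the synthetase gene that rose. It was at 39.6 and 39.5 FPKM in wild type and at 45.7 and 46.4 FPKM in the knockout (0.22 ± 0.0595, edgeR adjusted p = 0.00681), so both knockout libraries were higher. The call was lost without wild-type replicate 1 (edgeR adjusted p = 0.0508) or wild-type replicate 2 (0.0661), and on the TPM scale (0.06, 0.518). Its neighbours on the chromosome were higher too: the median log2 fold change of the 25 tested genes on each side of DARS was 0.52.

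**Figure D2:**
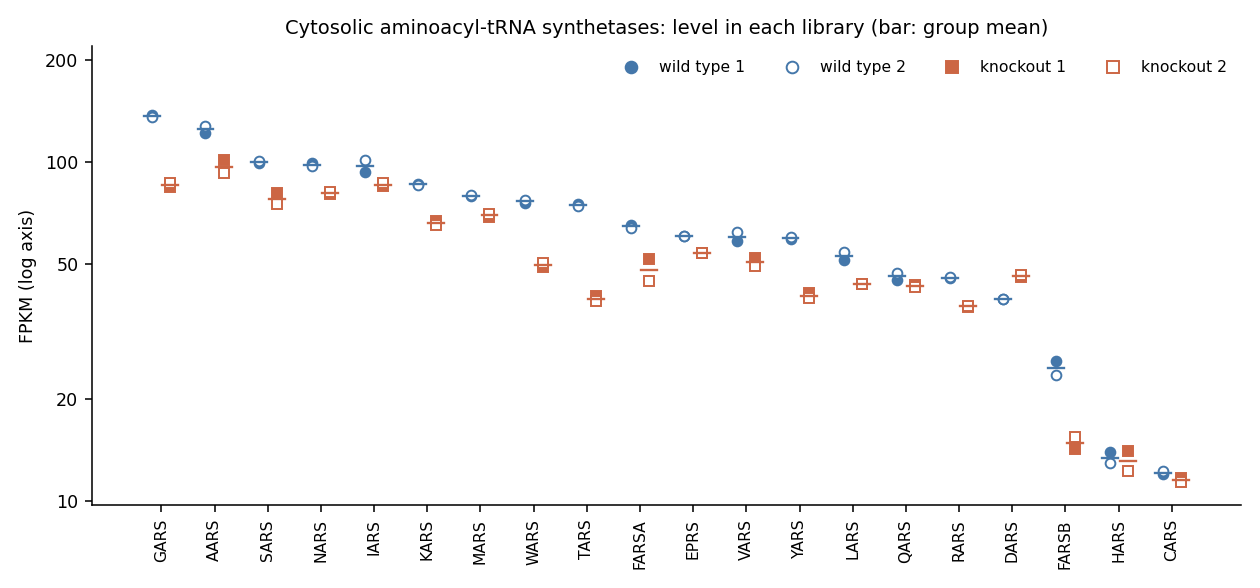
FPKM (log axis) of the 20 cytosolic synthetase genes in each library, ordered by wild-type mean, with circles for wild type, squares for the knockout and a short bar at each group's mean. Squares lie below circles without overlap for 18 genes, above them for DARS, and among them for HARS.

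The synthetase genes were also split by where their products act. In vertebrates a group of synthetases is held in the multi-synthetase complex, and the others act outside it. Of the 8 genes of the complex, 6 fell, DARS rose and QARS did not pass, with a median of -0.19, and 0 of the 8 fell by more than 0.5 on the log2 scale. Of the 12 genes outside the complex, 10 fell and 2 did not pass, with a median of -0.39, and 5 fell by more than 0.5. The summed level of the 8 was 502 and 515 FPKM in wild type and 445 and 448 FPKM in the knockout, and that of the 12 was 846 and 849 FPKM and 622 and 600 FPKM. The difference between these sets was not tested. Split by the fold of the catalytic domain, class I had 8 of 10 lower (median -0.22) and class II had 8 of 10 lower and 1 higher (median -0.37). With the median change of chromosomal neighbours removed, as described below, the medians were -0.34 for class I and -0.33 for class II. The difference between the classes was not tested.

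The complex also holds scaffold proteins without synthetase activity. AIMP2 was at 33.0 and 33.4 FPKM in wild type and at 19.1 and 19.6 FPKM in the knockout (-0.77 ± 0.0724, edgeR adjusted p = 2.18e-06), and EEF1E1, also called AIMP3, was at -0.51 (edgeR adjusted p = 0.00125). AIMP1 was at 0.04 and did not pass. Of 16 tested genes of mitochondrial synthetases (17 listed), which serve translation inside the organelle, 6 fell and 10 did not pass, with a median of -0.12. YARS2 (-0.60, edgeR adjusted p = 1.71e-05), LARS2 (-0.46, 0.000601) and MARS2 (-0.56, 0.000671) had the smallest p. The summed level of the 17 mitochondrial synthetase genes was 185 and 188 FPKM in wild type and 175 and 170 FPKM in the knockout, 92.5% of wild type. The 17 hold no gene for glycine or lysine, and GARS and KARS were summed only with the cytosolic set. This percentage therefore depends on how genes were assigned to the lists, and its difference from the cytosolic 78.0% was not tested.

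The 8 genes of serine and one-carbon metabolism held 6 that fell and 2 that did not pass, with a median log2 fold change of -0.36. Their summed level was 521 and 533 FPKM in wild type and 405 and 401 FPKM in the knockout, or 76.5% of wild type. Within the 3 enzymes that make serine from a glycolytic intermediate, the log2 fold changes in the order of the route were -0.13, -0.18 and -0.98, and the differences between them were not tested. PHGDH, which catalyses the entry step, did not pass (28.8 and 28.9 FPKM in wild type, 26.5 and 26.0 FPKM in the knockout, -0.13, edgeR adjusted p = 0.078). PSAT1, the aminotransferase of the middle step, had the highest wild-type level per length of all 42 genes, with 229 and 229 FPKM in wild type and 199 and 203 FPKM in the knockout (-0.18 ± 0.0619, edgeR adjusted p = 0.0241). The PSAT1 call was lost without wild-type replicate 1 (edgeR adjusted p = 0.12), wild-type replicate 2 (0.0943) or knockout replicate 1 (0.0566). PSPH, the phosphatase that releases serine (chromosome 7, 56011051 to 56051604, minus strand), was at 27.8 and 29.6 FPKM in wild type and at 14.2 and 14.9 FPKM in the knockout (-0.98 ± 0.0712, edgeR adjusted p = 2.6e-07). For PSPH the knockout libraries lay far below wild type, by a fitted 1.97-fold.

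Of the genes of the mitochondrial folate cycle, SHMT2, MTHFD2 and MTHFD1L fell, and MTHFD2L, a related gene outside the 42, did not pass (0.21, edgeR adjusted p = 0.114). SHMT2, which splits serine into glycine and a folate-bound carbon in mitochondria (chromosome 12, 57229327 to 57234935, plus strand), was at 77.3 and 81.8 FPKM in wild type and at 64.7 and 57.5 FPKM in the knockout (-0.38 ± 0.0689, edgeR adjusted p = 0.000539). MTHFD2, which oxidises the folate-bound carbon (chromosome 2, 74198562 to 74217565, plus strand), was at 85.2 and 90.8 FPKM in wild type and at 52.3 and 52.5 FPKM in the knockout (-0.74 ± 0.0625, edgeR adjusted p = 8.82e-07). MTHFD1L, which releases it as formate (chromosome 6, 150865549 to 151101887, plus strand), was at 42.6 and 43.1 FPKM in wild type and at 22.3 and 22.3 FPKM in the knockout (-0.94 ± 0.0597, edgeR adjusted p = 7.86e-08). In all 3 genes each knockout library was below each wild-type library, and the knockout replicates of MTHFD2 and MTHFD1L were almost equal. Of the cytosolic counterparts, MTHFD1 (chromosome 14, 64388031 to 64463457, plus strand) was at 21.6 and 22.3 FPKM in wild type and 17.3 and 17.2 FPKM in the knockout (-0.35 ± 0.0594, edgeR adjusted p = 0.000326), whereas SHMT1 did not pass (8.27 and 8.41 FPKM, then 8.40 and 7.99 FPKM, -0.02). The SHMT1 groups overlapped. SMCR8, on the opposite strand, shares 2.69% of the exonic bases of SHMT1.

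The 7 genes of other amino acid synthesis held 5 that fell, 1 that rose and 1 that did not pass, with a median of -0.40, and their summed level of 193 and 198 FPKM in wild type and 131 and 126 FPKM in the knockout came to 65.6% of wild type. Proline synthesis moved in opposite directions at its ends. ALDH18A1, whose product makes the glutamate-derived precursor of proline and ornithine (chromosome 10, 95605929 to 95656706, minus strand), was at 23.1 and 24.0 FPKM in wild type and at 29.98 and 29.4 FPKM in the knockout (0.34 ± 0.0611, edgeR adjusted p = 0.000487). PYCR1, the reductase of the closing step (ENSG00000183010, chromosome 17, 81932384 to 81942412, minus strand), was at 52.9 and 55.4 FPKM in wild type and at 25.6 and 22.3 FPKM in the knockout (-1.17 ± 0.0719, edgeR adjusted p = 6.35e-08). The fall of PYCR1, 2.25-fold, was the largest of the 42 genes. ALDH18A1 was higher in both knockout libraries than in either wild-type library, and in wild type PYCR1 had the higher level per length while in the knockout ALDH18A1 did. The gene MYADML2 shares 14.1% of the exonic bases of PYCR1 on the same strand and had 45 counts in all, against 11986 for PYCR1. On the opposite strand SLC4A5 shares 27.2% of the exonic bases of MTHFD2 with 90 counts in all, and AL391684.1 shares 19.3% of those of GOT1.

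The transaminase genes GOT1, GOT2 and GPT2 fell. GOT1, the cytosolic aspartate transaminase (chromosome 10, 99396870 to 99431569, minus strand), was at 62.3 and 63.2 FPKM in wild type and at 33.3 and 32.8 FPKM in the knockout (-0.92 ± 0.0597, edgeR adjusted p = 8.97e-08). GOT2, its mitochondrial counterpart (chromosome 16, 58707131 to 58734357, minus strand), was at 37.3 and 37.7 FPKM in wild type and at 29.1 and 28.7 FPKM in the knockout (-0.37 ± 0.0595, edgeR adjusted p = 0.000191). GPT2, the mitochondrial alanine transaminase (chromosome 16, 46884378 to 46931297, plus strand), was at 9.87 and 9.68 FPKM in wild type and at 7.79 and 6.94 FPKM in the knockout (-0.40 ± 0.0753, edgeR adjusted p = 0.000607). All 3 had no overlap between the groups. CTH, which makes cysteine from cystathionine (chromosome 1, 70411218 to 70439851, plus strand), was at 5.25 and 5.10 FPKM in wild type and at 2.96 and 2.41 FPKM in the knockout (-0.94 ± 0.134, edgeR adjusted p = 7.51e-05). Its knockout replicates differed more than those of any other member, by 0.30 on the log2 scale, where the median difference between knockout replicates was 0.04 over the 42 genes, yet both lay below wild type.

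ASNS, the asparagine synthetase gene (chromosome 7, 97852118 to 97872542, minus strand), did not pass, and its value is uncertain. It was at 2.67 and 3.12 FPKM in wild type and at 2.58 and 2.94 FPKM in the knockout (-0.07 ± 0.122, edgeR adjusted p = 0.665), the lowest wild-type level per length of the 42 genes, with overlapping groups. Another annotated gene on the same strand, AC079781.5, shares 44.6% of the exonic bases of ASNS and holds 82.0% of the 50-base stretches of its longest transcript. The sources used here do not state how reads common to both were counted, and the row of ASNS may hold only part of its reads. For comparison, no other member shares more than 8.36% of such stretches with other genes, and 30 of the 42 share none. The transcribed pseudogene ASNSP1, which holds 1.86% of the stretches, had 742 and 665 counts in wild type and 244 and 255 in the knockout (-1.46 ± 0.119, edgeR adjusted p = 7.05e-07), against 312 and 378, then 320 and 320 counts for ASNS. The row of the pseudogene was thus lower in both knockout libraries, while that of ASNS was not.

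**Figure D3:**
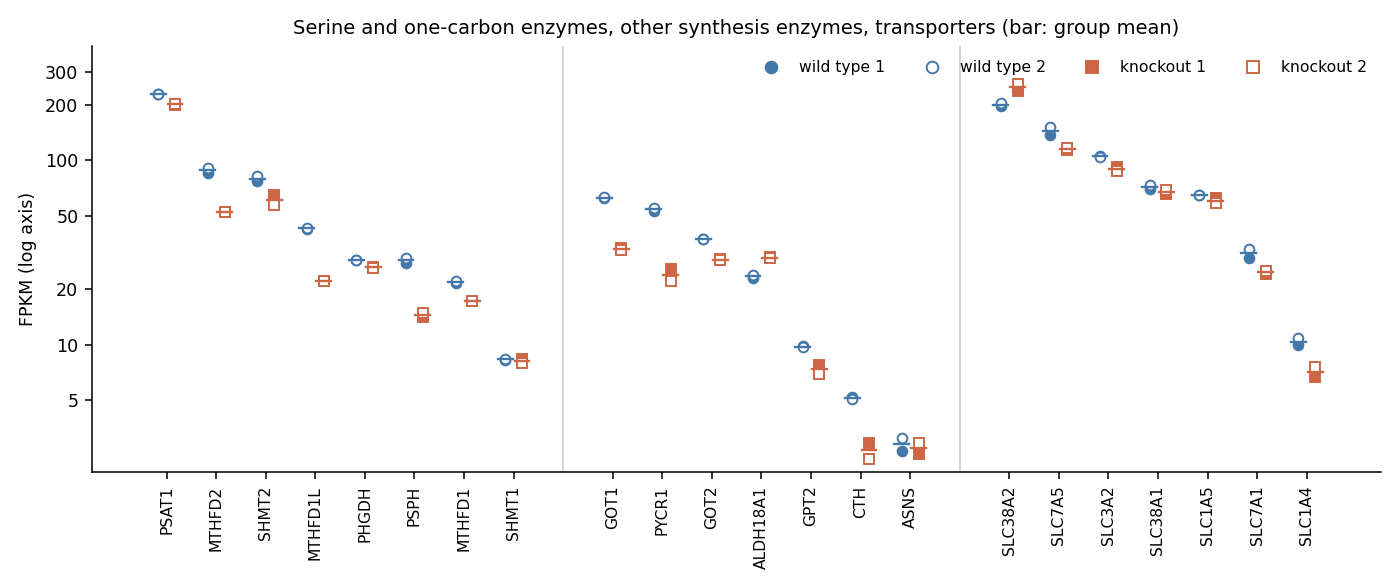
FPKM (log axis) in each library of the serine and one-carbon genes, the other synthesis genes and the transporter genes (3 blocks from left to right), with circles for wild type, squares for the knockout and a short bar at each group's mean. The widest gaps between circles and squares are those of PYCR1, PSPH, MTHFD1L, CTH and GOT1, each at a log2 fold change of -0.92 or lower.

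The 7 transporter genes held 4 that fell, 1 that rose and 2 that did not pass, with a median of -0.23. Their summed level overlapped between the groups, at 613 and 641 FPKM in wild type and 600 and 624 FPKM in the knockout, of which SLC38A2 made up 196 to 260 FPKM. SLC7A5 and SLC3A2 encode the light and heavy chains of LAT1, the exchanger of large neutral amino acids. SLC7A5 (chromosome 16, 87830023 to 87869488, minus strand) was at 137 and 152 FPKM in wild type and at 114 and 117 FPKM in the knockout (-0.32 ± 0.0685, edgeR adjusted p = 0.00165). SLC3A2 (chromosome 11, 62856102 to 62888875, plus strand) was at 105 and 105 FPKM in wild type and at 91.7 and 87.0 FPKM in the knockout (-0.23 ± 0.0630, edgeR adjusted p = 0.00821, and 0.0586 without wild-type replicate 1). Both chains were lower in each knockout library than in any wild-type library.

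SLC1A4, a carrier of alanine, serine and cysteine (chromosome 2, 64988477 to 65023865, plus strand), fell most among the transporters, from 10.0 and 10.8 FPKM in wild type to 6.67 and 7.57 FPKM in the knockout (-0.55 ± 0.0790, edgeR adjusted p = 8.25e-05). SLC7A1, the carrier of cationic amino acids such as arginine (chromosome 13, 29509410 to 29595688, minus strand), was at 29.7 and 32.9 FPKM in wild type and at 24.3 and 25.2 FPKM in the knockout (-0.34 ± 0.0658, edgeR adjusted p = 0.000886). Neither gene overlapped between the groups. The glutamine carriers SLC1A5 (-0.10) and SLC38A1 (-0.09) did not pass. SLC38A2, a sodium-coupled carrier of small neutral amino acids (chromosome 12, 46358189 to 46372867, minus strand), was at 196 and 203 FPKM in wild type and at 236 and 260 FPKM in the knockout (0.31 ± 0.0741, edgeR adjusted p = 0.0032). It was the transporter gene that rose, and the only 1 of the 7 whose knockout libraries both lay above wild type. The median log2 fold change of the 25 tested genes on each side of SLC38A2 was 0.33, and on the TPM scale SLC38A2 did not pass (0.15, edgeR adjusted p = 0.148).

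Position on the chromosome moved with several of these values. The median log2 fold change of the 25 tested neighbours on each side ranged from -0.38 around TARS to 0.52 around DARS, with a median of 0.02 over the 42 genes, 20 of them below and 22 above 0. With this local median removed, 29 members were lower and 1 was higher, and 27 of the 34 calls were kept in the same direction. DARS was then lower than its neighbours (-0.30, edgeR adjusted p = 0.00116), SLC38A2 did not pass (-0.02, 0.855), and ALDH18A1 was still higher (0.16, 0.046). Of the 5 members on chromosome 16, which all fell, GPT2 kept its call (-0.20, 0.0416), while AARS (-0.11, 0.182), KARS (-0.08, 0.283), GOT2 (-0.15, 0.0532) and SLC7A5 (-0.04, 0.673) did not. SARS, on chromosome 1, also lost its call (-0.06, 0.439). TARS was then at -0.54, PSPH at -0.69 and MTHFD2 at -0.46, all still lower. Among the synthetases, FARSB (-0.85) and YARS (-0.58) then lay below TARS. SHMT2 lay far below higher neighbours, at -0.72 with the local median removed (edgeR adjusted p = 3.74e-06), and SLC38A1 (-0.41, 0.000246) and SLC1A5 (-0.24, 0.00534), which had not passed, did so. The local median came from the same fold changes and entered this fit as a fixed value. Its own error is therefore left out of these p-values, which bears most on calls near 0.05, such as ALDH18A1 and GPT2. Copy number was not measured here.

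**Figure D4:**
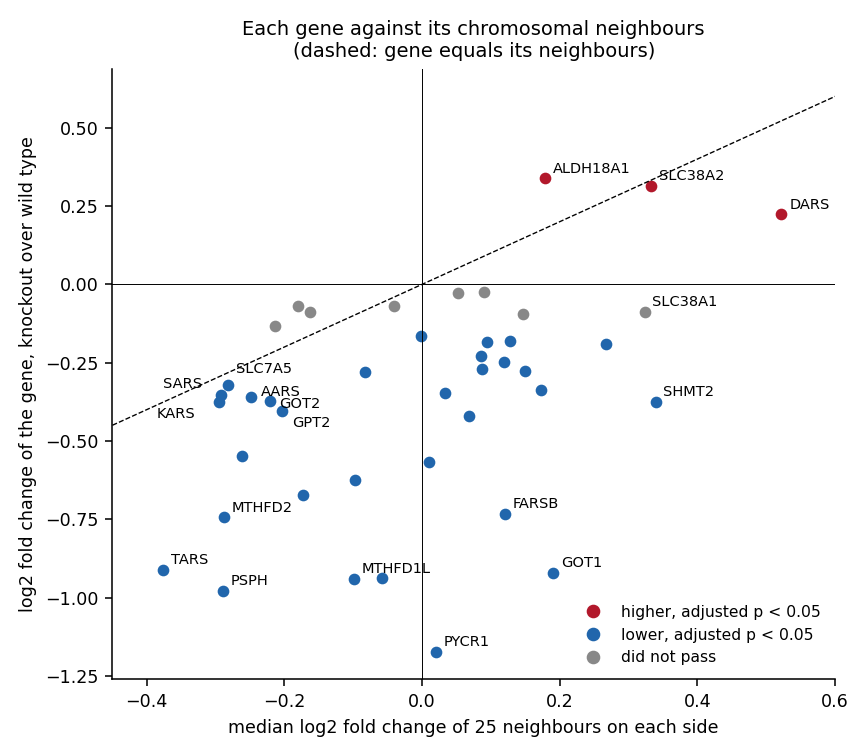
Log2 fold change of each of the 42 genes (vertical axis) against the median log2 fold change of the 25 tested genes on each side of it (horizontal axis), with a dashed line where a gene equals its neighbours. DARS and SLC38A2 lie below the line at 0.52 and 0.33 on the horizontal axis, whereas PYCR1, GOT1 and FARSB lie far below it beside neighbours with medians of 0.02, 0.19 and 0.12.

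Members fell both with and without the elements in the windows used. Of the 12 members whose windows hold TGATGNAA, 9 fell, 0 rose and 3 did not pass (CARS, ASNS and SLC38A1), with a median log2 fold change of -0.25. Of the 22 whose used windows lack it, 15 fell, 2 rose and 5 did not pass, with a median of -0.33. Over all listed windows 15 members hold TGATGNAA, so some of the 22 hold it in a window not used. The holders include TARS (-0.91), MTHFD1L (-0.94) and GOT1 (-0.92), and also IARS (-0.18) and MARS (-0.19) with the same TTGCATCA letters as TARS. Of the 5 holders of CACGTG, IARS, MTHFD1, MTHFD1L and SLC7A5 fell and ALDH18A1 rose.

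Of the factors known to regulate these genes, MYC fell at the RNA level and ATF4 did not pass. ATF4 was at 205 and 194 FPKM in wild type and at 197 and 196 FPKM in the knockout, with overlapping groups (-0.02, edgeR adjusted p = 0.826). RNA levels do not measure ATF4 protein, which is controlled in translation. MYC was at 108 and 112 FPKM in wild type and at 44.4 and 47.5 FPKM in the knockout, lower in both knockout libraries (-1.26, edgeR adjusted p = 1.10e-08). Of 12 tested genes of amino acid sensing and stress signalling (13 listed, LARS among them, which is also a synthetase above), 7 fell, 2 rose and 3 did not pass, with a median of -0.30. SESN2, a leucine sensor of the mTORC1 pathway (-0.996, edgeR adjusted p = 6.92e-08), and TRIB3, a pseudokinase that ATF4 and DDIT3 induce (-0.92, 1.33e-07), had the smallest p after MYC. Whether the change of any member depends on these factors was not tested.

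Related enzymes and transporters outside the 42 held genes that rose as well as genes that fell. Of 17 tested genes of other amino acid and folate enzymes (20 listed), 6 fell, 5 rose and 6 did not pass, with a median of -0.16. BCAT1, the cytosolic branched-chain transaminase, was at 7.51 and 7.70 FPKM in wild type and at 3.98 and 4.22 FPKM in the knockout (-0.89, edgeR adjusted p = 3.71e-07). MAT2A, which makes S-adenosylmethionine, rose (0.51, edgeR adjusted p = 2.59e-05), and ASL, the argininosuccinate lyase, fell (-0.50, 8.73e-05). In the same list the mitochondrial transaminases BCAT2 (0.35, edgeR adjusted p = 0.00105) and OAT (0.33, 0.000772) and the glycine decarboxylase GLDC (0.32, 0.00107) rose. Of 14 tested genes of other transporters of amino acids, citrate and folate (20 listed), 4 fell, 5 rose and 5 did not pass, with a median of -0.12. SLC7A11, the light chain of the cystine-glutamate exchanger, fell (-0.61, edgeR adjusted p = 8.46e-06), as did the mitochondrial glutamate carrier SLC25A22 (-0.44, 0.00052), and SLC43A1, a carrier of large neutral amino acids also called LAT3, rose (0.99, 1.34e-05). The shares that fell, 35.3% of the other enzymes and 28.6% of the other transporters, stand beside 25.2% of all tested genes and 73.8% of the 42; these differences were not tested.

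**Figure D5:**
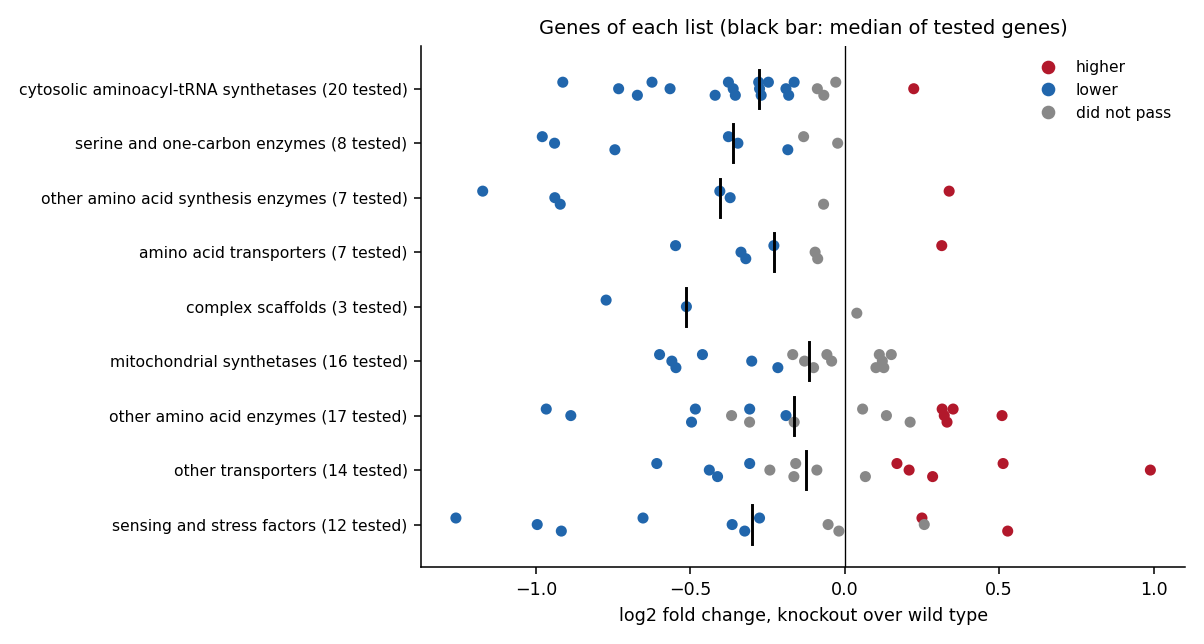
Log2 fold change (horizontal axis) of every tested gene in the 4 role groups and 5 related lists, with blue for genes that fell, red for genes that rose, grey for genes that did not pass and a black bar at each median. The 4 role groups have medians between -0.40 and -0.23 with 1 red point at most, while the other enzymes and other transporters spread to both sides of 0.

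The levels per length of the 42 genes in wild type ranged from 2.89 FPKM for ASNS to 229 FPKM for PSAT1. PSAT1 was followed by SLC38A2 at 199.9 ± 4.91 FPKM (SD, n = 2), SLC7A5 at 145 ± 10.3, GARS at 137 ± 1.19 and AARS at 125 ± 3.73, and of these neighbours in the order SLC7A5 and GARS did not differ beyond their spread. At the lower end stood CARS at 12.1 ± 0.181, SLC1A4 at 10.4 ± 0.591, GPT2 at 9.77 ± 0.135, SHMT1 at 8.34 ± 0.0981 and CTH at 5.17 ± 0.109 FPKM (SD, n = 2), where SLC1A4 and GPT2 lay close together. In the knockout SLC38A2 had the highest level, at 248 ± 16.9 FPKM, above PSAT1 at 201.1 ± 2.54 FPKM (SD, n = 2). Replicates lay close together: the median difference between replicates was 0.03 on the log2 scale in wild type and 0.04 in the knockout, and in wild type the log2 ratio of replicate 2 to replicate 1 ranged from -0.14 for FARSB to 0.22 for ASNS. The authors' deposited table gave the same direction for 42 of 42 genes and, at an adjusted p under 0.05, the same 31 lower and 3 higher, with log2 fold changes that differed from those here by at most 0.0166.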

How the data were processed

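RNA of 4 H1299 libraries was made with Illumina TruSeq reagents, per the labels' protocols, and the submitters' processing notes name HISAT2 2.0.5 and the build hg38. The read counter, its use of strand and the annotation: not given in the sources used here. Gene coordinates of the 42 members are identical in GENCODE release 29, which gave exon overlaps and transcript sequences.

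The authors deposited 1 table with raw counts per gene and FPKM, made from these counts, the listed gene length and an effective size of 0.965 to 1.02 of each total count. Their deposited mean signal per group was not used. Their deposited log2 fold changes and p-values have no tool named in the file headers and served for comparison only. Unused sample columns numbered 0.

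Genes that reached 1 FPKM in 2 or more libraries were tested on counts with edgeR 4.0.16 under R 4.3.3 (quasi-likelihood, TMM factors 0.978 to 1.02, no covariates, two-sided), adjusted by Benjamini-Hochberg over 13079 genes at 0.05. The common biological coefficient of variation was 0.0566 and the median SE 0.0886. No exact permutation test was made, since its smallest p for 2 against 2 libraries is 0.333. The chi-square of replicate counts per degree of freedom was 4.05 in wild type and 8.56 in the knockout, so replicates were not the same library. Samples were grouped by the labels.

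The members and lists were chosen with earlier results of these data known. Every library's values are given for TTC28, for up to 5 called members per role with the largest change, and for those that rose, and up to 3 genes of each related list with the smallest p are named, with ATF4 and MYC. ASNSP1, AC079781.5, TTC28-AS1, MTHFD2L, BCAT2, OAT and GLDC were named after their values were seen. The library values of PHGDH, PSAT1, SHMT1, FARSA, ASNS, AIMP2 and BCAT1 were also added after they were seen. The local median is that of 25 tested genes on each side. It was run with the other methods on simulated counts, where few genes changed and no region shifted. Those counts are unlike these data, so they do not test the calls made here with the local median removed. Alternatives were other filters and scalings, DESeq2 1.42.0, limma 3.58.1 on log2 FPKM with pseudocounts of 1 and 0.1, robust shrinkage, a replicate block, removal of the local median and leaving out each library.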

Additional observations from a re-analysis of the deposited data

How the results depend on the processing

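Of 34 called members, 21 kept their call and direction under all 17 alternatives, and 13 lost the call under at least 1. With the local median removed, 2 of those 13 changed sign. DARS was then lower (-0.30, edgeR adjusted p = 0.00116), whereas SLC38A2 was near 0 and did not pass (-0.019, edgeR adjusted p = 0.855). Of the 8 that had not passed, 7 passed under at least 1 alternative, all but ASNS. On a TPM scale 38 members were lower and 1 higher (0 synthetases and 0 transporters higher), with medians of -0.50 over the members, -0.44 over synthetases, -0.53 over serine and one-carbon genes, -0.57 over other synthesis genes and -0.40 over transporters; over all tested genes 1924 were then higher and 5304 lower, so that 26.6% of calls were higher against 49.9%, and the median moved to -0.17. Scaling to total counts gave medians of -0.065 over all genes, -0.39 over the members and -0.34 over synthetases, and leaving mitochondrial genes out of the totals gave -0.29 for synthetases. A minimum of 5 FPKM called 2169 genes higher and 2177 lower among fewer genes, with medians of -0.26 for synthetases, -0.64 for other synthesis genes and 0.022 for the other transporters; a minimum of 0.1 FPKM and no filter each gave -0.29 for synthetases, and no filter gave 0.083 for the other amino acid enzymes. With the local median removed, 1 member, 0 synthetases and 0 transporters were higher, and medians were -0.33 for synthetases, -0.20 for other synthesis genes and 0.058 for the other transporters. The cause of these shifts was not tested. Leaving out each library gave member medians of -0.36 to -0.29, synthetase medians of -0.30 to -0.27 and 0 to 1 synthetases higher; the lone library of a group is then assumed to vary like the others. A replicate block left 3 members higher and 31 lower, with a median of -0.33, and 3515 genes higher and 3593 lower in all. Same-numbered libraries did not deviate together (correlation -0.00144), and the labels do not say whether they were handled together. Counts were lowest for CTH (142 to 335 per library) and ASNS (312 to 378), which had the largest standard errors of the members.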
